A study of Mus musculus with 4 samples.

Results

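The 10 genes Tcf7l2, Pou4f1, Lhx9, Gbx2, Kitl, Robo3, Neurod2, Neurod6, Barhl2 and Rgs13 form a set labelled habenula and thalamus neuron genes. They were counted in cells dissected as ARC (hypothalamic arcuate nucleus), and not each gene followed the label. They are 10 of the 27998 genes in the count table, and each was matched by its symbol. The members were selected on their measured UMI counts in neurons of these same cells, with and without Nkx2-1, so their levels in neurons without Nkx2-1, and how often they were found together there, describe the choice and were not tested. The marker and family lists were also chosen with earlier results of these data known, so counts of their genes are a description. The cells came from the GFP-positive ventral hypothalamus of 6 Pomc-eGfp embryos of strain C57BL/6 at E15 by the age label (the sample titles read E15_5), labelled as neurons of that nucleus, and all embryos carried the Pomc-eGfp reporter, in which GFP follows the Pomc gene. The embryos were pooled before papain digestion, 1 10x library was made, and it was sequenced in 4 runs. The barcodes cannot be traced to a run or an embryo, so the 4 runs were used as 1 sample. There was therefore no replicate error, cells were not used as replicates, and every interval given here is a 95% interval that covers counting error only. Beside a share of 0 cells the limit given is that of 3 cells in the class, in place of an interval.

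The 6465 barcodes, all distinct, held 26277265 unique molecular identifiers (UMIs, each counted transcript molecule). The 6351 cells within the study's stated limits, which are more than the study's own map holds, had 1748 to 16836 UMIs each with a median of 3338. Neurons were taken as cells with at least 2 UMIs of Stmn2, a microtubule regulator of growing neurons, which gave 4006 cells. Of these, 1272 had at least 1 UMI of Nkx2-1, the homeobox factor of the ventral hypothalamus, and 2734 had none. Nkx2-1 was thus found in 31.8% of neurons from a dissection labelled ARC (median 3544 UMIs per neuron with it and 3360 without). Positive neurons held a median of 2 Nkx2-1 UMIs and 48% of them held 1, so the neurons counted as lacking Nkx2-1 will include some in which it was missed. The background for free RNA came from 183 cells with vascular, fibroblast or macrophage transcripts and no Stmn2 UMI (median 3591 UMIs). Whether these cells make any member themselves was not tested, so their shares need not be free RNA alone. No doublet caller was used beyond the limit of 4500 genes per cell, so a cell here can hold the RNA of more than 1 cell.

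The habenula and the thalamus arise next to each other in the alar diencephalon, dorsal and caudal to the hypothalamus. Their precursors receive Wnt signals, which the transcription factor Tcf7l2 relays to target genes, and Tcf7l2 stays on in the postmitotic neurons of both. Pou4f1 is a POU homeobox factor of habenula neurons, Gbx2 is a homeobox factor of thalamus neurons, and the LIM homeobox factor Lhx9 is known from both. Robo3 is a receptor that steers axons at the midline, and Kitl is the ligand of the receptor Kit. Neurod2 and Neurod6 are bHLH factors of maturing excitatory neurons, Barhl2 is a homeobox factor of diencephalic precursors, and Rgs13 is a regulator of G-protein signalling.

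In the mouse genome (GRCm38, GENCODE vM21) Tcf7l2 lies on the plus strand at chr19:55741820-55933654, where the sense intronic transcript Ppnr overlaps it. Pou4f1 lies on the minus strand at chr14:104461676-104467999. Gbx2 lies on the minus strand at chr1:89927956-89931179, where D130058E05Rik on the plus strand overlaps it. Lhx9 and Rgs13 also lie on chromosome 1, at chr1:138825186-138848577 and chr1:144138654-144177372. The others are Kitl (chr10:100015630-100100416), Robo3 (chr9:37415669-37433246), Neurod2 (chr11:98325415-98329648), Neurod6 (chr6:55677822-55681263) and Barhl2 (chr5:106452523-106458166). The table alone does not separate counts of an overlapping transcript from those of Tcf7l2 or Gbx2. The 250 bases before the RefSeq transcript start (GRCm38.p6, minus strand, 5′ to 3′) are shown for Pou4f1 (chr14:104468000-104468249) and Gbx2 (chr1:89931177-89931426), the pair of factors that split the neurons described here. They are also shown for Robo3 (chr9:37433176-37433425), Neurod2 (chr11:98329646-98329895) and Rgs13 (chr1:144177373-144177622), the members whose window held a motif that was searched for, with those motifs in capitals.
Pou4f1: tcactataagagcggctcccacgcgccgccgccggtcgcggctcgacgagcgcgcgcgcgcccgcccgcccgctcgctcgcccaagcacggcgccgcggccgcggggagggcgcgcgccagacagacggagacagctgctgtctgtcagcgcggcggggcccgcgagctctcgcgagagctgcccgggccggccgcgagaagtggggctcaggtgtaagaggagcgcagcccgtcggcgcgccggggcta
Gbx2: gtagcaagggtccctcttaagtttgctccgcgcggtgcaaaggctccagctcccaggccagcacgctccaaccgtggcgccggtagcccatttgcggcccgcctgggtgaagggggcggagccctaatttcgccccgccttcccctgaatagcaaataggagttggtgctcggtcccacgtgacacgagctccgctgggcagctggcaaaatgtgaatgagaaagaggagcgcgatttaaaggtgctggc
Robo3: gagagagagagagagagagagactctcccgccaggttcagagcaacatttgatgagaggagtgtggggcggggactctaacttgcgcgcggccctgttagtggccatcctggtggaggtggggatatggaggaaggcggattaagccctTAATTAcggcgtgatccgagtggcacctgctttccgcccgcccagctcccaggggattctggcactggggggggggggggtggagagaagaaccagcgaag
Neurod2: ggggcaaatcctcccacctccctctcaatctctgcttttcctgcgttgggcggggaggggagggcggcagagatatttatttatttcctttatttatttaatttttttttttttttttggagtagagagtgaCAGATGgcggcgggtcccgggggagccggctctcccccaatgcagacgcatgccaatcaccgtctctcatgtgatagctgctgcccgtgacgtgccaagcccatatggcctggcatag
Rgs13: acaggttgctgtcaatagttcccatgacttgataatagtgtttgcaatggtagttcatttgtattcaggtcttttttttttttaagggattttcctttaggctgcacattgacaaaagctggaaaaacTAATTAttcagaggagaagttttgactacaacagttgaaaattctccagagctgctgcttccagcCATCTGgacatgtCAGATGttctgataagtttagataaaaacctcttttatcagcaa
The motifs, searched on both strands, were CTTTGA (the core bound by Tcf and Lef factors), TAATTA (a homeodomain core) and CAGATG (a proneural E-box). RefSeq gave 11 windows for the members, 2 of them of Tcf7l2, whose windows did not match a GENCODE transcript start and are not shown. CTTTGA was in 0 of the 11 member windows and in 13.8% of 32851 RefSeq windows of this length. TAATTA was in 2 member windows, those of Robo3 and Rgs13, and in 4.84% of all windows. CAGATG was in 2 member windows, those of Neurod2 and Rgs13, and in 14.4% of all windows. These are matches of letters in short windows and say nothing of binding.

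More neurons without Nkx2-1 than with it held a member. At least 1 of the 10 was found in 1659 of 2734 such neurons (60.7%, interval 58.8 to 62.5), in 48% of neurons with Nkx2-1 and in 47.0% of background cells. Tcf7l2 made most of the background share. Without it, at least 1 of the other 9 was found in 49.2% of neurons without Nkx2-1, in 12.4% of neurons with it and in 12.6% of background cells. Among all 1705 cells with 0 Stmn2 UMIs, a wider background that takes in progenitors, the shares were 54.4% for the 10 and 23.2% for the 9. In the 496 non-cycling progenitors without Nkx2-1, set out after the neurons, they were 77.2% and 45.4%. When each cell was thinned to 2167 UMIs the shares of the 9 in neurons without Nkx2-1, neurons with it and background cells were 48.2%, 7.84% and 8.48%. Neurons that held 3 or more members together numbered 971 without Nkx2-1 (35.5%) and 47 with it (3.69%), against 0 of 183 background cells, which still permits a share of 1.64%. At most 7 members were found in 1 cell.

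Tcf7l2 was the broadest member. It was found in 53.8% of neurons without Nkx2-1 (52.0 to 55.7), in 43.7% of neurons with Nkx2-1 and in 40.4% of background cells. Shares hid most of the difference, because a positive neuron without Nkx2-1 held a median of 6 Tcf7l2 UMIs and up to 75. In CPM, the counts of a gene scaled to 1000000 UMIs pooled over the cells of a class, Tcf7l2 was at 1264 (1242 to 1286) in neurons without Nkx2-1, 375 in neurons with it and 158 in background cells. After thinning, the share in neurons with Nkx2-1 was 32.4%, against 29.1% in background cells (22.3 to 36.7). The share alone thus did not set such neurons apart from these background cells, whereas their CPM was higher. Pituitary-like cells were lower than these neurons, at 16.8% after thinning and 102 CPM. Non-cycling progenitors with Nkx2-1 were higher in share, at 43.8%, with 331 CPM. Whether the cells of these classes make Tcf7l2 themselves was not tested.

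Pou4f1 and Lhx9 came next. Pou4f1 was found in 32.0% of neurons without Nkx2-1 (30.3 to 33.8), in 4.09% of neurons with it (3.07 to 5.33) and in 2.73% of background cells (0.893 to 6.26). Its CPM was 459.9, 48.3 and 8.05 in the same order. Lhx9 was found in 36.2%, 5.35% and 1.64% of these classes, at 301, 29.8 and 4.03 CPM. In neurons with Nkx2-1 the intervals of both shares overlapped those of the background, for Lhx9 4.17 to 6.73 against 0.339 to 4.72. Their CPM did not, with Pou4f1 at 42.6 to 54.5 in neurons with Nkx2-1 against 2.95 to 17.5, and Lhx9 at 25.4 to 34.8 against 0.830 to 11.8. A positive neuron without Nkx2-1 held a median of 4 Pou4f1 UMIs and 2 Lhx9 UMIs.

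Kitl and Robo3 marked smaller sets of neurons. Kitl was found in 16.1% of neurons without Nkx2-1 (14.7 to 17.5), in 3.77% of neurons with it and in 6.56% of background cells (3.43 to 11.2). Kitl in neurons with Nkx2-1 was thus at or below these background cells in its share. Its CPM there, 15.7 (12.5 to 19.4), overlapped that of background cells, 24.2 (14.3 to 38.2). In pituitary-like cells Kitl was found in 3.55% and its CPM was lower, at 7.36 (4.43 to 11.5). Whether background cells make Kitl themselves was not tested. Robo3 was found in 13.4% (12.1 to 14.7), 2.20% and 1.64% of the same classes. Robo3 was seen through few molecules, since 60.1% of its positive neurons without Nkx2-1 held a single UMI, and neurons counted here as lacking Robo3 will include some in which it was missed.

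Gbx2, Neurod2 and Neurod6 were rare. Gbx2 was found in 92 of 2734 neurons without Nkx2-1 (3.37%, 2.72 to 4.11) and in 6 of 1272 with it. Neurod2 was also found in 92 neurons without Nkx2-1 and in 9 with it, and Neurod6 in 72 and 4. None of the 3 had a UMI in the 183 background cells, a count of 0 that still permits a share of 1.64%. Of all Neurod6 UMIs in the kept cells 90.6% lay in neurons without Nkx2-1, and of all Gbx2 UMIs 85.2% did. For Neurod2 this was 65.2%, and it was found in 21 of 496 non-cycling progenitors without Nkx2-1 (4.23%, 18.3 CPM), against 3.37% and 12.9 CPM in neurons without Nkx2-1.

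Barhl2 and Rgs13 went against the label, because their transcripts lay in progenitors. Progenitors were taken as cells with at most 1 Stmn2 UMI and at least 2 UMIs of a list of precursor genes (Sox2, Nes, Hes5, Fabp7, Sox9 and Rax), with cycling cells (at least 2 UMIs of Mki67 and Top2a) kept apart. Barhl2 was found in 100 of 496 non-cycling progenitors without Nkx2-1 (20.2%, 16.7 to 24.0) and in 34.5% of 110 cycling ones, but in 2.19% of neurons without Nkx2-1. Rgs13 was found in 10.3% and 11.8% of these progenitors and in 11 neurons without Nkx2-1 (0.402%). Progenitors without Nkx2-1 held 65.2% of all Barhl2 UMIs and 77.0% of all Rgs13 UMIs. The other 8 members held between 0.199% (Pou4f1) and 15.7% (Neurod2) of their UMIs there. The values at the neuron threshold are given as a description. In cells without Nkx2-1 with 1 Stmn2 UMI, just outside the threshold, Pou4f1 was found in 5.91%, Robo3 in 3.26% and Barhl2 in 7.74%, and in those with 2 UMIs, just inside it, in 11.3%, 5.45% and 3.64%.

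**Figure D1:**
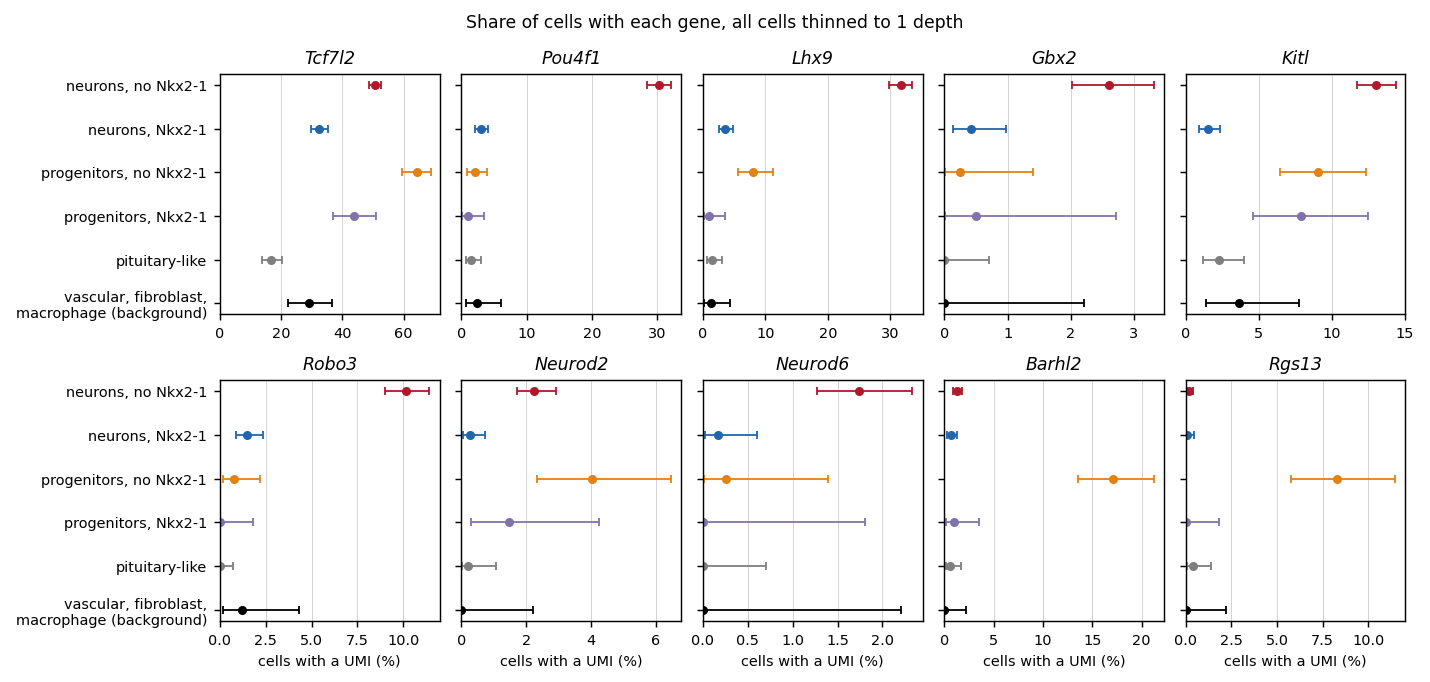
Share of cells with at least 1 UMI of each member after every cell was thinned to 2167 UMIs, in percent on the horizontal axis (each panel has its own scale), for 6 classes of cells with 95% counting intervals. Pou4f1 (30.2%), Lhx9 (31.6%) and Robo3 (10.2%) stand out in neurons without Nkx2-1, Barhl2 (17.1%) and Rgs13 (8.31%) in non-cycling progenitors without Nkx2-1, and Tcf7l2 is found in every class.

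Set as a fold between the neuron classes, all 9 members with at least 20 UMIs were at least 2-fold higher in neurons without Nkx2-1. Of 12590 genes with that many UMIs 4.32% were at least 2-fold higher there and 1.82% at least 2-fold lower, and since this contrast chose the members nothing is read from their count. The folds were 17.1 for Neurod6, 10.1 for Lhx9 (8.62 to 11.9), 9.53 for Pou4f1 (8.41 to 10.8), 8.80 for Gbx2, 8.02 for Kitl and 6.77 for Robo3. Those of Neurod2 (4.99), Tcf7l2 (3.37) and Barhl2 (2, at the threshold itself) were the lowest. Rgs13, with 13 UMIs in neurons without Nkx2-1 and 2 in those with it, had too few. Of 13 measured habenula markers 10 were at least 2-fold higher in neurons without Nkx2-1 and 0 lower. Among them were Gng8 (392 against 43.7 CPM), a G-protein subunit, and Nr4a2 (212 against 24.3), a nuclear receptor. Of 10 measured thalamus markers 5 were higher and 0 lower, among them the zinc finger gene Zic1 (508 against 56.0). The neurons without Nkx2-1 were not of these kinds alone. Of 16 measured genes of the hypothalamic field 9 were within 2-fold and 7 were lower, 1 of them Nkx2-1 itself by the gate. The arcuate neuropeptide genes Npy (153 against 30.6 CPM) and Ghrh (55.2 against 15.8) were higher without Nkx2-1, while Pomc was at 277 against 474 CPM, a ratio of 0.583 (0.553 to 0.616). Markers of other cell types were also higher in part, in 3 of 5 endothelial, 2 of 7 pituitary and 2 of 6 macrophage markers, with these lists at 23.4 against 15.3, 105 against 56.0 and 16.4 against 12.0 CPM. Their part in the folds was not tested.

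Some neurons held a member and Nkx2-1 together. Nkx2-1 was found in 52 of 928 Pou4f1 neurons (5.60%, 4.21 to 7.28), in 6.43% of Lhx9 neurons and in 6 of 98 Gbx2 neurons, against 31.8% of all neurons. It was found in 9.84% of Kitl, 7.11% of Robo3, 27.4% of Tcf7l2 and 22.1% of Barhl2 neurons. The 52 Pou4f1 neurons with Nkx2-1 had a median of 5566 UMIs, and the 876 without it 3914. Only 8 neurons held 2 or more UMIs of both genes, with a median of 6345.5 UMIs. Among neurons gated on other hypothalamic factors, Pou4f1 was found in 1.23% (Fezf1 neurons) to 5.05% (Six6 neurons), Lhx9 in 3.68% to 6.61% and Robo3 in 0.962% to 2.84%. Gbx2 was found in 0 of 552 Otp neurons, which still permits a share of 0.543%. Whether doublets or free RNA made these shared cells was not tested.

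Within the neurons without Nkx2-1 most of those with Pou4f1, Lhx9 or Gbx2 also held Tcf7l2. Of 876 Pou4f1 neurons 805 held Tcf7l2, as did 912 of 990 Lhx9 neurons and 91 of 92 Gbx2 neurons. Pou4f1 and Lhx9 shared 669 neurons, where 343 were expected from independent detection at each cell's depth, a ratio of 1.95 (1.81 to 2.11). Pou4f1 was also found in 314 of 366 Robo3 neurons (ratio 2.43, 2.17 to 2.71). Of 440 Kitl neurons 350 held Tcf7l2, 280 Pou4f1 and 237 Lhx9. Neurod2 and Neurod6 shared 34 neurons against 2.79 expected (12.2, 8.44 to 17.0), and Neurod6 shared 41 with Robo3 against 11 (3.74, 2.68 to 5.07). Of the 45 member pairs 24 were found together more often than expected, with an interval wholly above 1, where 2.01% of 75688056 pairs of genes were. Those pairs were of the 12304 genes found in 10 to 1472 of these neurons, a range that takes in all 10 members. The genes were not matched to the members in how often they were found. Pairs of rare genes can seldom lie above 1, and with few expected cells can never lie below it. The share is therefore not a matched one, and the same holds for the shares of gene pairs given below.

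Other pairs were found together less often than expected. Pou4f1 and Gbx2 shared 6 neurons where 32.8 were expected (ratio 0.183, 0.0672 to 0.399), although both shared Lhx9 and Tcf7l2. Gbx2 and Robo3 shared 1 neuron against 14.0 expected (0.0714, 0.00181 to 0.398). Kitl shared 2 neurons with Neurod6 against 13.1 (0.152, 0.0184 to 0.550) and 7 with Neurod2 against 16.8 (0.417, 0.168 to 0.860). These were the 4 of 45 pairs with an interval wholly below 1, against 0.689% of the same gene pairs. In neurons with Nkx2-1, where members other than Tcf7l2 were few, 8 of 45 pairs lay above 1 and 0 below, where 1.19% and 0.318% of 95061366 pairs of genes in the members' range of detection did. Pou4f1 shared 30 neurons with Lhx9 there (3.38 expected) and 14 with Robo3 (1.40 expected).

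**Figure D2:**
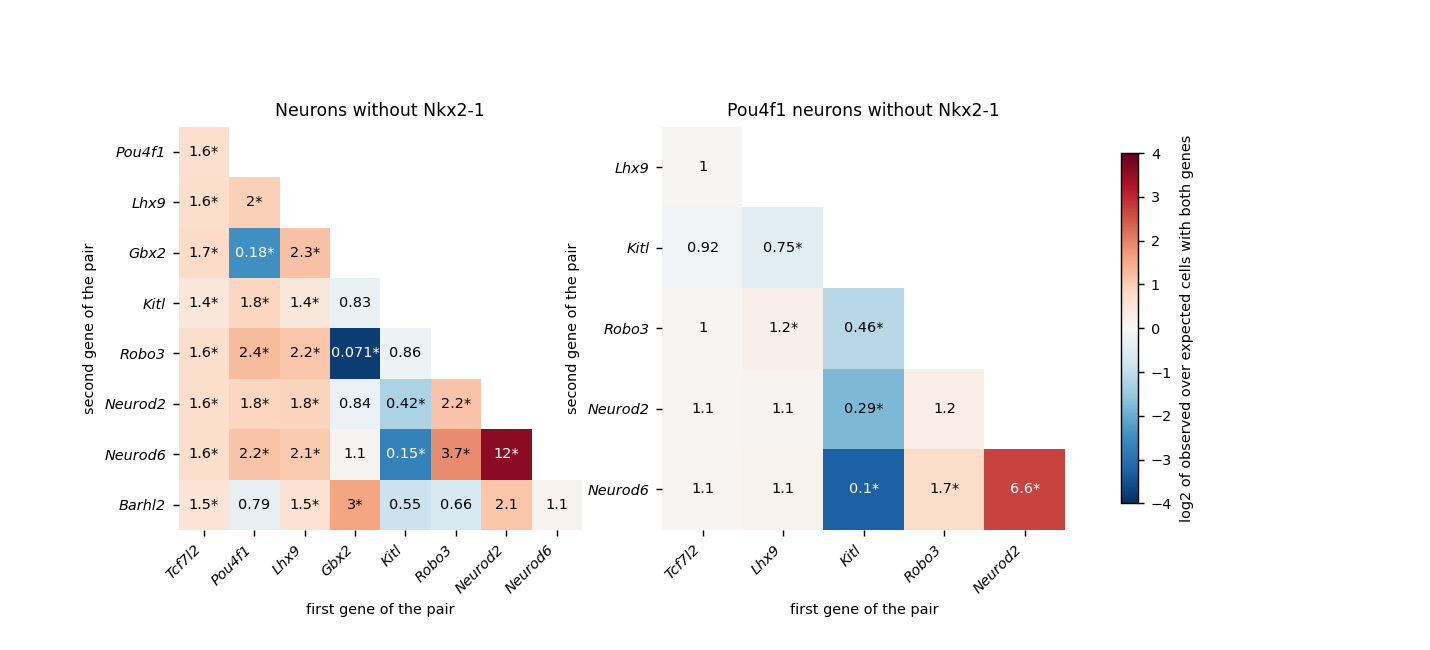
Cells found with both genes of a pair, over the number expected from independent detection at each cell's depth (colour, log2 scale; the printed number is the ratio, with an asterisk where its 95% interval leaves out 1), for 9 members in the 2734 neurons without Nkx2-1 and for 6 members in the 876 of them with Pou4f1. Pou4f1 with Gbx2 and Gbx2 with Robo3 lie below 1 in the left panel, and Kitl lies below 1 with Robo3, Neurod2 and Neurod6 in the right panel.

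The members differed in the Tcf7l2 counts they went with. All 3726 neurons deep enough were thinned to 2167 UMIs and binned by their Tcf7l2 UMIs. Pou4f1 was found in 5.39% of neurons with 0 Tcf7l2 UMIs, in 22.8% with 1, in 50.4% with 2 to 4 and in 58.6% with 5 to 9, and then in 32.9% with 10 or more. Lhx9 went from 5% to 73.8% over the same bins without a drop. Gbx2 was found in 1 of 2061 neurons with 0 Tcf7l2 UMIs and 0.325% with 2 to 4, but in 22.1% of the 240 neurons with 10 or more. Robo3 peaked at 21.6% in the bin of 5 to 9 and Kitl at 16.6%, and both were at 10.0% in the highest bin. Nkx2-1 ran the other way, from 29.9% to 2.92%, and so did Six3, a homeobox factor of the rostral hypothalamus, from 40.7% to 1.67%. The LIM factor Lhx2, which is known from thalamus neurons, went from 2.18% to 33.3%. The genes most like Tcf7l2 over the 4006 neurons, by Pearson's r of log UMIs per 10000, were Zic1 (0.65), Lhx9 (0.64) and Zic4 (0.59), given as a description of neurons of 1 library.

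**Figure D3:**
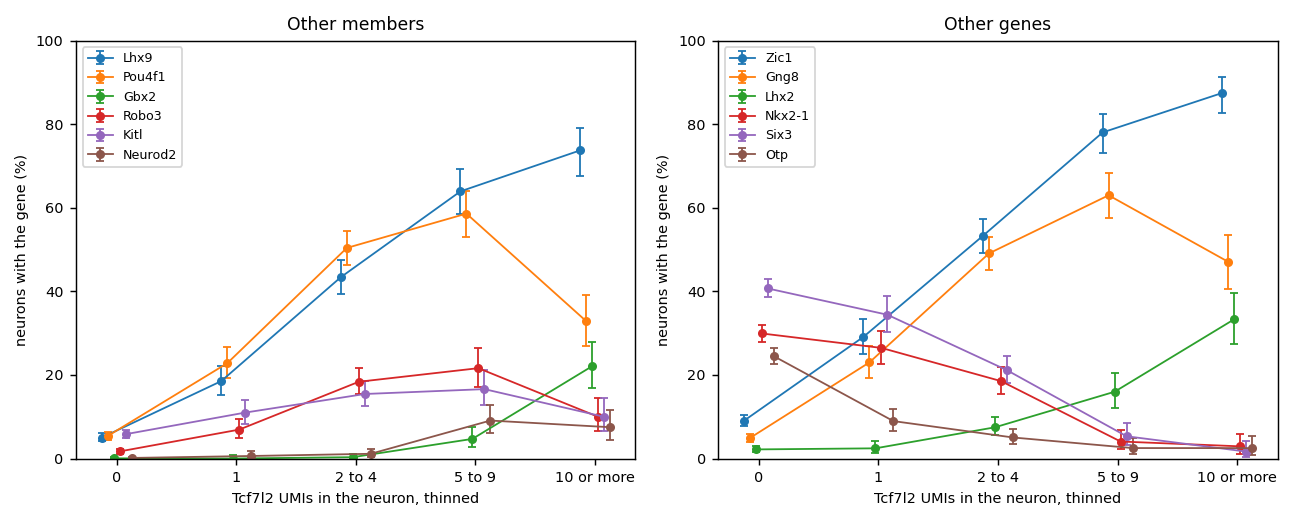
Share of neurons with each gene (percent, 95% counting intervals) against the number of Tcf7l2 UMIs in the neuron after thinning, for members on the left and for other genes on the right; lines join the bins of 1 gene. Lhx9 reaches 73.8% and Gbx2 22.1% in the highest bin, Pou4f1 is lower there (32.9%) than in the bin before it (58.6%), and Nkx2-1, Six3 and Otp are highest at 0 Tcf7l2 UMIs.

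Most measured habenula markers were higher in neurons with Pou4f1. The 876 neurons without Nkx2-1 that held Pou4f1 were set against the 1858 that did not, as pooled CPM, and this and the later groups were chosen after values were seen. Of 13 measured habenula markers 11 were at least 2-fold higher in Pou4f1 neurons and 1 was lower, where 3.93% of 11845 genes were higher and 5.69% lower. Of 10 measured thalamus markers 4 were higher and 3 lower. Both lists were chosen with earlier results of these data known, so nothing is tested by these counts. Gng8 was at 904 against 90.0 CPM (10.0-fold, 9.19 to 11), Nr4a2 at 507 against 38.2 (13.3-fold) and the ETS factor Etv1 at 201 against 14.9 (13.5-fold). Tac1, the precursor of substance P, was at 238 against 23.5 (10.2-fold). The receptor gene Gpr151 and the nicotinic subunit gene Chrnb4, which mark habenula projection neurons, were found almost wholly here, with 67 of 70 and 51 of 54 UMIs. Gng8 was found in 74.1% of Pou4f1 neurons, 12.4% of the others and 8.20% of background cells. Isl1 was the lower marker, at 26.4 against 254, and it also stands in the hypothalamic list. Chrnb3 had no UMI in either group. Of markers of other cell types, 3 of 7 pituitary (the list at 69.5 against 127 CPM) and 2 of 4 endothelial markers (13.5 against 29.3) were lower in Pou4f1 neurons, 2 of 4 macrophage markers were higher (24.3 against 11.7), and of 4 mural markers 1 was higher and 2 lower (14.3 against 16). Their part in these differences was not tested.

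Of the 9 members measured, with Pou4f1 itself among them, 6 were at least 2-fold higher in Pou4f1 neurons, 1 was lower and 2 were neither. Robo3 was at 146 CPM in Pou4f1 neurons and 11.1 in the rest (13.2-fold, 10.3 to 17.1), Neurod6 at 26.9 and 4.12 (6.54-fold, 4.21 to 10.5), and Lhx9 at 575 and 140.2 (4.10-fold, 3.79 to 4.44). Kitl was 3.94-fold and Neurod2 2.60-fold higher. Tcf7l2 at 1730.4 against 989 CPM stayed under 2-fold (1.75). Gbx2 went the other way, at 4.58 against 28.2 CPM (6.16-fold lower, 3.74 to 10.8), and Barhl2 at 5.66 against 10.1 did not pass 2-fold. Of the 15 measured genes of the hypothalamic field all 15 were at least 2-fold lower in Pou4f1 neurons, among them Otp (26.1 against 283), Six6 (34.5 against 249) and Six3 (28.3 against 264). The median log2 ratio of this list was -3.26, and that of all genes measured was -0.03.

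Families of the members gave mixed pictures. Slc17a6, the vesicular glutamate transporter of diencephalic neurons, was at 104 against 39.6 CPM in Pou4f1 neurons (2.63-fold), while Slc32a1, the vesicular GABA transporter, was at 2.96 against 37.4. In the Neurod and Nhlh family, leaving out the members, 3 of 6 measured genes were higher and 1 lower, where 3.93% and 5.69% of all genes were, with Nhlh2 at 821 against 177 and Neurod1 at 104 against 19.0. Among the Robo receptors and their ligands other than Robo3, 3 of 8 were higher and 2 lower. Robo1 was at 201 against 59.3 and the ligand gene Slit2 at 90.5 against 35.3, but Robo2 at 10.5 against 46.4. Kit, the receptor for Kitl, was lower, at 3.23 against 9.82 CPM. Over all neurons the genes most like Pou4f1 were Cbln2 and Nwd2 (r of 0.74 and 0.73) and Gng8 (0.70).

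Among Pou4f1 neurons, Robo3 and Kitl were found together less often than expected. Within the 876 neurons Robo3 was found in 314, Kitl in 280 and neither in 331, and both were found in 49 where 107 were expected (ratio 0.459, 0.340 to 0.607). This held within the Pou4f1 gate, with which both genes were found more often than expected. Over all neurons without Nkx2-1 they shared 57 against 66.1 (0.863, 0.653 to 1.12), and in those without Pou4f1 8 against 5.14 (1.56, 0.673 to 3.07), so both intervals took in 1. Kitl met Neurod6 in 2 of these neurons against 19.4 expected (0.103, 0.0125 to 0.372) and Neurod2 in 6 against 20.8 (0.289, 0.106 to 0.628). Robo3 met Neurod6 in 36 against 21.7 (1.66, 1.16 to 2.30). Lhx9 leaned to Robo3 (284 against 246, 1.15) and away from Kitl (164 against 220.0, 0.746, 0.636 to 0.869) within this gate. Outside it Lhx9 and Kitl were found together more often than expected, at 2.34 (1.84 to 2.95) in neurons without Nkx2-1 or Pou4f1 and 1.36 (1.19 to 1.54) in all neurons without Nkx2-1. Of 36 pairs in Pou4f1 neurons 3 lay above 1 and 4 below, where 0.906% and 0.268% of 78168756 pairs of genes did. Counting Kitl and Robo3 only from 2 UMIs, an alternative chosen after seeing the data, gave a ratio of 0.122.

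The 265 Pou4f1 neurons with Robo3 and no Kitl (median 3826 UMIs) were then set against the 231 with Kitl and no Robo3 (median 4320). Of 8356 genes 4.02% were at least 2-fold higher and 6.4% at least 2-fold lower in the Robo3 set. Among members that were not gates, Neurod6 was at 58.2 against 0.926 CPM (62 UMIs against 1), Neurod2 at 28.2 against 6.49 (4.34-fold, 1.87 to 11.7) and Lhx9 at 853 against 292 (2.92-fold, 2.57 to 3.33). Tcf7l2 (1913 against 1138) and Pou4f1 (1524 against 991) were under 2-fold higher. Lhx9 was found in 245 of the 265 neurons with Robo3 (92.5%) and in 125 of the 231 with Kitl (54.1%).

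Habenula markers were split between both sets. Of 13 measured, 5 were at least 2-fold higher in the Robo3 set, 3 were lower and 5 were within 2-fold. Etv1 was at 485 against 29.6 CPM (16.4-fold, 11.4 to 24.2), Tac1 at 413 against 66.7 (6.19-fold) and Gng8 at 1296 against 435 (2.98-fold). Chrnb4 and Chrna3, subunits of a nicotinic receptor of the habenula, were also higher in the Robo3 set. Nr4a2 was level at 575 and 579 CPM, as was Irx2 at 290.0 and 260.3. Calb2, the calcium-binding protein calretinin, was lower in the Robo3 set at 13.1 against 67.6, and so was the prokineticin receptor gene Prokr2 at 23.5 against 62.1.

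Of the other lists, 3 of 9 measured thalamus markers were higher and 2 lower in the Robo3 set, and of 6 neural progenitor genes 0 were higher and 3 lower (median log2 ratio -0.71), with Fabp7 at 35.7 against 132 CPM. Single genes outside the habenula list, named for their likeness to a member, for their place in a family list or after their values were seen, also differed. The Wnt effector Lef1 was at 212 against 19.5 CPM (10.9-fold, 6.96 to 18.0) and Neurod1 at 207 against 33.4 in the Robo3 set. The LIM-only factor Lmo1 was at 656 against 14.8 (44.3-fold) and the POU factor Pou3f1 at 227 against 16.7. Robo1 (281 against 123) and Slit2 (144 against 59.3) were higher with Robo3. The kinase gene Mast4 was 27.1-fold lower in the Robo3 set, at 16 against 433 CPM, and Mast4 was the gene most like Kitl over all neurons (r of 0.55). Cbln1, a synapse organizer, was at 16.9 against 174 and the protocadherin gene Pcdh19 at 7.51 against 78.8. Cbln2 (1092 against 1272) and Slc17a6 (92.0 against 119.5) were within 2-fold. The 49 neurons with both Robo3 and Kitl lay between the sets for Lhx9 (499 CPM), Mast4 (254) and Etv1 (67.7), with a median of 4096 UMIs. Whether they were doublets was not tested.

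**Figure D4:**
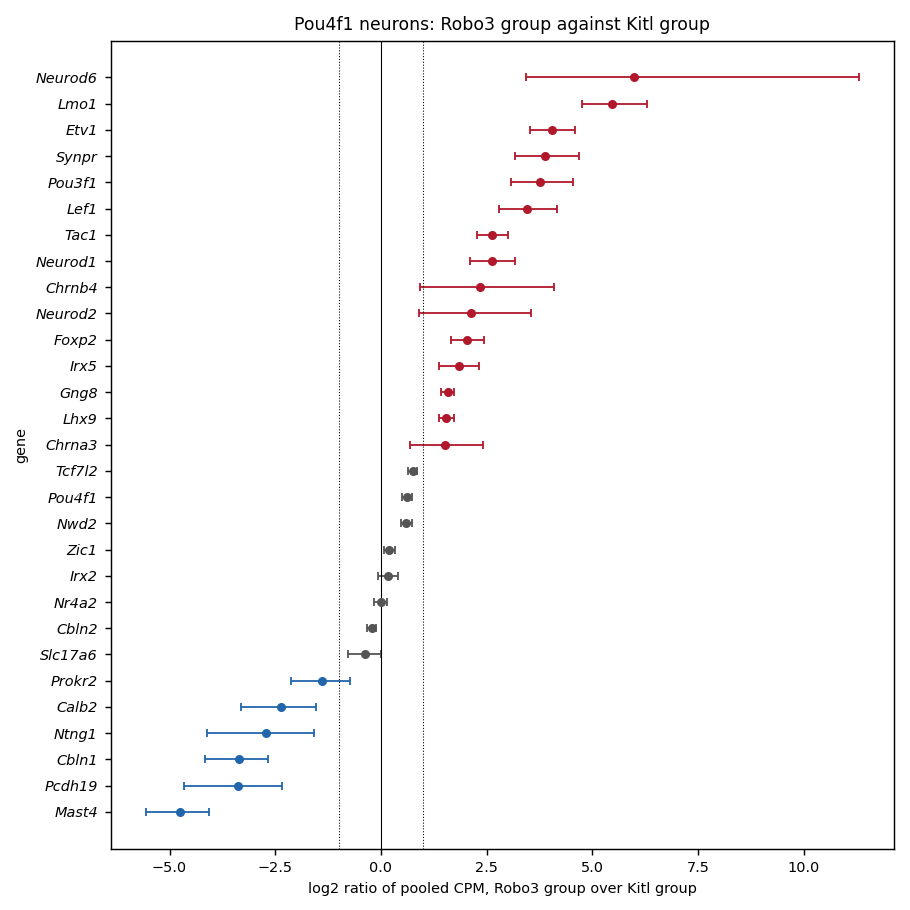
Log2 ratio of pooled CPM, the 265 Pou4f1 neurons with Robo3 over the 231 with Kitl, for 29 genes with 95% counting intervals; dotted lines mark 2-fold, red points are higher and blue points lower in the Robo3 set by at least 2-fold. Neurod6, Lmo1 and Etv1 lie at the Robo3 end, Mast4 at the Kitl end, and Nr4a2, Irx2 and Cbln2 near 0.

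Gbx2 marked a smaller set with thalamus markers. The 86 neurons with Gbx2 and without Pou4f1 or Nkx2-1 (median 3348.5 UMIs) were set against the Pou4f1 neurons without Gbx2, and of 9870 genes 4.7% were at least 2-fold higher and 16.4% at least 2-fold lower in the Gbx2 set. Tcf7l2 was at 6972 against 1714 CPM (4.07-fold, 3.87 to 4.27) and was found in 85 of the 86 neurons. Lhx9 was at 960.2 against 577 (1.66-fold). Kitl was at 45.6 against 237 (5.20-fold lower), Robo3 at 1 UMI against 542, and Barhl2, with 9 UMIs against 21, at 29.3 against 5.70 CPM. Neurod2 (16.3 against 21.2) and Neurod6 (16.3 against 27.2) were within 2-fold.

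Of 10 measured thalamus markers 5 were at least 2-fold higher in the Gbx2 set and 2 were lower. Ntng1, a netrin family membrane protein, was at 260.4 against 20.9 CPM (12.5-fold, 8.99 to 17.3), Lhx2 at 443 against 57.9 (7.65-fold, 6.12 to 9.53) and Foxp2 at 723 against 150.5 (4.80-fold). Prox1 and Rora were also higher, and Cbln2 and Cbln1 lower. Zic1 was level within 2-fold, at 1269 and 869. Of 13 measured habenula markers 11 were lower, among them Nr4a2 (9.76 against 509) and Irx2 (3.25 against 265), and Calb2 (228 against 44.0) and Prokr2 (71.6 against 30.7) were higher. The proneural factor Neurog2, at 140.0 against 4.89 CPM, and the Wnt feedback gene Nkd1, at 277 against 39.4, were higher in the Gbx2 set. Slc17a6 was at 87.9 against 103, and Slc6a4, the serotonin transporter of early thalamus neurons, had no UMI in the Gbx2 set. Sp9 (146 against 1.63) and the homeobox gene Shox2 (332 against 52.4), named after values were seen, were higher with Gbx2 as well. Lists of other cells were lower in the Gbx2 set, in 5 of 5 measured pituitary markers (the list at 6.51 against 70.1 CPM), 3 of 3 fibroblast markers (6.51 against 42.1), the 1 endothelial marker (3.25 against 13.6), the 1 macrophage marker (3.25 against 24.4) and 4 of 7 neural progenitor genes. Each of the first 4 lists had 1 or 2 UMIs in the 86 Gbx2 neurons, and their part in these differences was not tested.

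Lhx9 also marked 243 neurons with no Pou4f1, Gbx2 or Nkx2-1 (median 3599 UMIs). They were set against the 1135 neurons that held none of Nkx2-1, Tcf7l2, Pou4f1, Gbx2 and Lhx9 (median 2837 UMIs). Tcf7l2, absent from the second group by its gate, was found in 77.4% of the Lhx9 neurons. Kitl was at 193 against 20.9 CPM (9.24-fold, 7.01 to 12.3), Robo3 at 44.4 against 3.44 (12.9-fold), Neurod2 at 23.2 against 0.860 and Barhl2 at 22.2 against 3.15. Of 10204 genes 4.66% were at least 2-fold higher and 6.05% lower, against 7 higher and 1 lower of 10 habenula markers and 6 higher and 0 lower of 10 thalamus markers. Of 14 genes of the hypothalamic field 13 were lower, Otp at 71.8 against 439.8 CPM among them. Precursor lists also stood higher in the Lhx9 neurons, with 4 of 5 measured alar progenitor genes (median log2 ratio 4.51), 3 of 7 neural progenitor genes, where 1 was lower, 2 of 4 cycling genes and 2 of 5 intermediate precursor genes at least 2-fold higher. Of markers of other cell types, 2 of 7 pituitary markers were higher and 1 lower (the list at 244 against 124 CPM), 1 of 2 mural markers was higher (42.3 against 13.8) and 1 of 3 fibroblast markers lower (20.1 against 26.1). Their part in these differences was not tested. In the 1135 neurons without these members Otp was found in 35.9%, Isl1 in 45.6%, Six3 in 49.6% and Six6 in 48.4%, Robo3 in 1.06% and Kitl in 3.35%. A further 160 Kitl neurons lacked Pou4f1, and Tcf7l2 was found in 69.4% and Lhx9 in 45.6% of them.

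**Figure D5:**
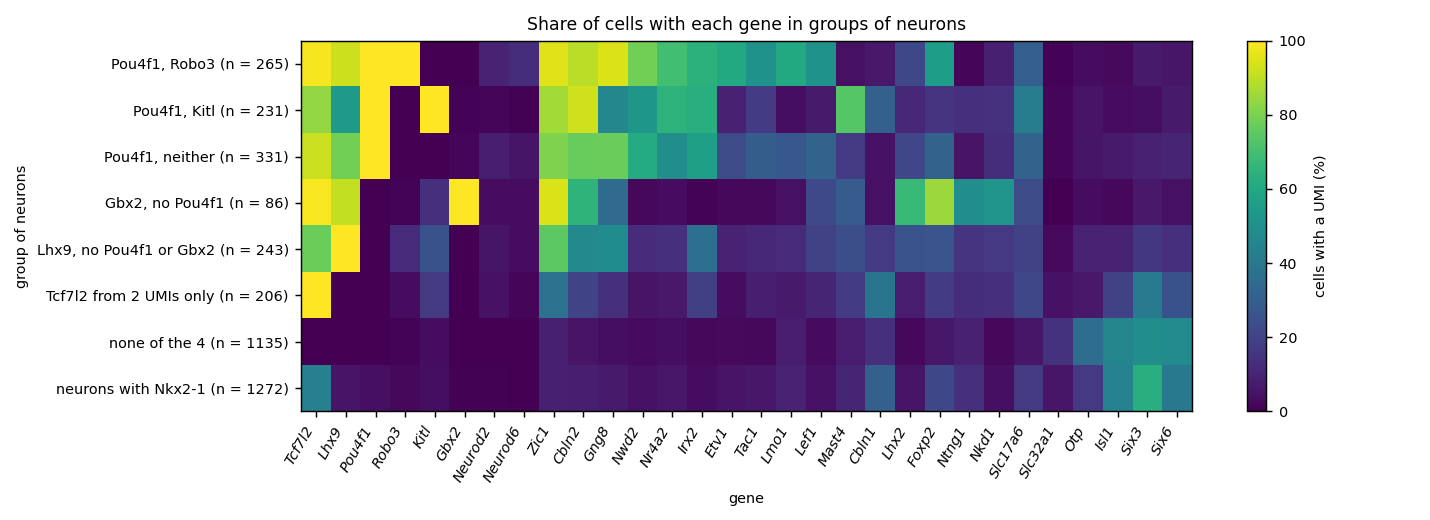
Share of cells with at least 1 UMI (colour, percent) of 30 genes in 8 groups of neurons, the first 7 without Nkx2-1; the number of neurons stands beside each group, and the 4 genes of the last but 1 row are Tcf7l2, Pou4f1, Gbx2 and Lhx9. Gate genes are at 100% or 0% by construction. Zic1 is found in 74.9% (Lhx9) to 95.5% (Pou4f1 and Robo3) of the first 5 groups, Foxp2 in 84.9% of Gbx2 neurons, and Otp, Isl1, Six3 and Six6 mainly in the 2 lowest rows.

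Barhl2 and Rgs13 were both higher in progenitors without Nkx2-1 than in those with it. Of 9563 genes 5.73% were at least 2-fold higher and 6.31% lower in the 496 non-cycling progenitors without Nkx2-1 than in the 282 with it. Of 6 members measured 5 were higher without Nkx2-1. Barhl2 was at 99.9 against 6.47 CPM (15.5-fold, 6.95 to 42.7), Rgs13 at 36.1 against 2.16 (16.7-fold, 4.44 to 141), Tcf7l2 at 1175 against 331 (3.55-fold), Lhx9 at 46.1 against 8.62 and Neurod2 at 18.3 against 6.47. Kitl at 56.8 against 39.9 was within 2-fold. Of 7 measured alar progenitor genes 6 were higher, with Pax6 at 116 against 8.62 and Dbx1 at 79.2 against 8.62. All 3 measured Wnt readouts were higher, among them Nkd1 at 175 against 48.5. Markers of other cell types were higher as well. All 4 measured pituitary markers were (Pou1f1 at 59.1 against 6.47 CPM, Pitx1 at 42.6 against 4.31), with the whole list at 183 against 26.9 CPM, and so were both measured macrophage markers, with the list at 58.5 against 6.47. The endothelial list was at 60.3 against 20.5, with 1 of 3 measured markers higher. With the cells that held a UMI of either list left out, an alternative chosen after seeing the data that kept 437 and 256 cells, the folds were 15.5 for Barhl2, 17.0 for Rgs13, 3.97 for Tcf7l2, 5.44 for Lhx9, 3.22 for Neurod2 and 1.48 for Kitl.

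Barhl2 and Rgs13 were found together in 24 of these 496 cells against 12.4 expected (ratio 1.93, 1.24 to 2.87). In the 110 cycling progenitors without Nkx2-1 the ratio was 1.86 (0.893 to 3.42), which took in 1. Of 45 pairs in the 496 cells 3 lay above 1 and 2 below. The other pairs above were Lhx9 with Rgs13 (2.21, 1.18 to 3.78) and Lhx9 with Neurod2 (5.29, 2.82 to 9.05). No share over all pairs of genes was computed for progenitors. Kitl and Barhl2 met in 0 cells where 15 were expected (the 95% Poisson interval of the ratio reached 0.245), and Kitl and Rgs13 in 2 against 7.85 (0.255). Kitl was found in 0 of 100 progenitors with Barhl2, which still permits a share of 3%, and in 15.7% of the 396 without. Between these groups (median 3459 and 2825 UMIs) 3.44% of 8132 genes were at least 2-fold higher and 14% lower with Barhl2. Rgs13 was at 85.0 against 22.1 CPM (3.85-fold, 2.26 to 6.60) and Tcf7l2 at 1795 against 998 (1.80-fold). Of 7 alar progenitor genes 5 were higher, with Dbx1 at 183 against 49.4 and Irx3 at 196 against 56.3. All 9 measured genes of the hypothalamic field were lower, with Six3 at 15.9 against 310.3. Other lists were lower with Barhl2 too, in all 3 measured fibroblast markers (the list at 2.66 against 156 CPM), 2 of 4 pituitary markers (104 against 206), the 1 measured macrophage marker (13.3 against 71.5) and 3 of 8 neuron genes. With the cells that held a UMI of the fibroblast, pituitary or macrophage lists left out, an alternative chosen after seeing the data that kept 90 and 315 cells, Rgs13 was 2.76-fold, Tcf7l2 1.45-fold, Dbx1 3.31-fold and Irx3 2.67-fold higher and Six3 34.2-fold lower with Barhl2, against 19.5-fold in all cells. Rspo3, which encodes a secreted enhancer of Wnt signalling and was named after values were seen, was at 895 against 259 CPM.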

How the data were processed

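Single-cell RNA sequencing counts of 1 pooled library were used. The authors deposited raw UMI counts per gene and barcode, without normalization; per the submitters' processing notes they used Cell Ranger 2.1.1, STAR 2.4.0, Seurat 2.0 and the mm10 genome. Reads were not processed again. Cells were kept with 200 to 4500 genes, at most 10% mitochondrial UMIs and at most 10 Hba-a1 UMIs, and 635 kept cells below 2167 UMIs left the thinned shares (seed 1). Shares carry Clopper-Pearson intervals, CPM exact Poisson intervals and ratios of CPM conditional binomial intervals. A gene was measured with at least 20 UMIs over both groups and called at 2-fold. Expected shared cells came from Poisson detection at each cell's depth. Python 3.11.15, numpy 2.4.6, scipy 1.17.1 and matplotlib 3.10.9 were used, and the calculations were tested on simulated data.

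The members and all gene lists were chosen with earlier results of these data known. Named genes were the members, the 3 genes most like each member with at least 50 positive neurons (Pearson's r of the natural log of 1 plus UMIs per 10000), and up to 4 genes per list with the highest CPM; other genes were named after their values were seen. Positions came from GENCODE vM21 (GRCm38) and promoter windows from RefSeq (GRCm38.p6), in which all 10 members matched by symbol. With 1 library, no comparison between groups of cells was tested, and alternatives for the cell limits, gates, detection and depth are given in the closing section.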

Additional observations from a re-analysis of the deposited data

How the results depend on the processing

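The share of neurons without Nkx2-1 that held at least 1 member was 60.7%. It was 62.6% with at most 5% mitochondrial UMIs, 64.7% with neurons taken from 4 Stmn2 UMIs and 49.7% with members counted from 2 UMIs, and 58.9% to 61.9% under the other settings run. The cause of these moves was not tested, except that counting from 2 UMIs leaves out cells with 1. Members at least 2-fold higher without Nkx2-1 numbered 9, and 8 to 10 under the alternatives. Member pairs above expectation numbered 24, and 16 to 24 under the alternatives, and pairs below numbered 4, and 3 to 6. Under alternatives added after seeing the data (Pou4f1 from 2 UMIs, both genes from 2 UMIs, thinned cells), the ratio of Kitl with Robo3 in Pou4f1 neurons, 0.459, was 0.492, 0.122 and 0.368, and that of Kitl with Neurod6, 0.103, was 0.124, 0 and 0. In the background, taken as all cells with 0 Stmn2 UMIs, Lhx9 was found in 4.87% in place of 1.64%, Barhl2 in 7.21% and Rgs13 in 3.23% in place of 0. Single shares moved past their interval for all 10 members after thinning or from 2 UMIs, as fewer UMIs were counted, and for 2 to 6 of 10 under each of the other alternatives run for shares. Counting Nkx2-1 as present from 2 UMIs leaves the class without it as it is, so it was run for the folds only. No paired analysis was possible because 1 pooled library was sequenced and cells carry no replicate. Leaving out a replicate could not be run for the same reason. At a median of 3338 UMIs per cell a gene with few transcripts is missed in many cells, so cells counted as lacking Nkx2-1, Robo3, Neurod2, Neurod6 or Rgs13 can hold them.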

Other observations

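Among the 243 Lhx9 neurons without Pou4f1, Gbx2 or Nkx2-1, Qrfp, the gene of a neuropeptide of lateral hypothalamic neurons, was at 61.3 CPM against 3.44 in the 1135 neurons with none of the gating genes (17.8-fold, 9.46 to 36.4, counting error only), and it was found in 3.70% of the Lhx9 neurons. Npy, the neuropeptide Y gene, was at 166 against 337 CPM. Pax6 was at 69.7 against 8.60 and Rspo3 at 203 against 4.30 CPM in the same comparison. These genes were named after their values were seen.

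In the Robo3 set of Pou4f1 neurons the cannabinoid receptor gene Cnr1 was at 201 against 25 CPM in the Kitl set, the cell adhesion gene Cntn2 at 168 against 22.2 and the synaptic vesicle gene Synpr at 233 against 15.8. Otx2 was at 31.9 against 3.71 CPM there, and in progenitors it was at 82.3 CPM with Barhl2 against 28.9 without. Fgf15, a secreted growth factor gene of the diencephalon, was at 178 CPM in progenitors with Barhl2 against 39.6 in those without.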
